A study of Mus musculus with 10 samples.

Results

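The 36 genes described here encode the machinery of mitosis and of the spindle checkpoint. They were taken as a fixed list of symbols, which was chosen with earlier results of these data known. Each gene was read from the probe set that carries that 1 symbol and has the highest mean over the 10 arrays. Of the 36 genes, 35 were measured among 19938 genes tested. Ccnb1, which encodes cyclin B1, has no probe set named for it alone and was not analysed here. All 35 measured genes lay above the 25th percentile of the genes' log2 signal in every array, so none was left out for low signal.

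Affymetrix arrays measured RNA in immortalized mouse macrophages, which divide in culture without limit. The 4 groups were wild-type cells unstimulated (3 arrays) or given β-1,3 glucan beads (3 arrays), and TLR9KO cells, which lack Toll-like receptor 9, unstimulated (2 arrays) or given the same beads (2 arrays). The sample titles and source names give the strain B6 only for the wild-type bead arrays, and name no strain for the other groups. The glucan is a sugar of the fungal cell wall, and beads were used at 20 per cell for 4 h. The labels name a single line for each genotype, so genotype and line cannot be told apart, and nothing in them says that replicate arrays are separate cultures. The p-values therefore measure only the spread between these arrays, which may be technical. The labels give no passage number, cell density or cell count. The sample titles carry bracketed numbers of unknown meaning, all lower for knockout than for wild-type arrays, so they cannot be told apart from the line.

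At the entry into mitosis, cyclin-dependent kinase 1 with its cyclins, Polo-like kinase 1 and the Aurora kinases drive chromosome condensation and spindle assembly. Kinetochores then capture microtubules, and any kinetochore that is not attached keeps the spindle checkpoint active, which holds back the Cdc20-bound anaphase-promoting complex. Once all are attached, that complex marks cyclin B and securin for destruction, separase cuts cohesin, and the cell divides. Most of these genes are transcribed in G2 and mitosis, so in a growing culture their RNA is widely used as a sign of how many cells are dividing. In these bulk samples, fewer cells in mitosis and less of each RNA per dividing cell cannot be told apart.

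The third wild-type bead array stood apart from the other 9. The standard deviation of log2 signal over all genes was 1.75 in it and 1.86 to 2.00 in the others, and its mean correlation with the other arrays of its group was 0.973. In it, 34 of the 35 mitosis genes were below both other wild-type bead arrays, with a median difference from their mean of -0.53 on the log2 scale. Among 7147 genes in the same range of mean signal (6.89 to 10.37) that median was -0.36, and over all genes it was 0.08. Of the 7147 genes, 82.7% were below the mean of the other wild-type bead arrays. Counts of genes between the lines, and the differences of the genes described array by array, are therefore given with and without this array. It was singled out after seeing these values, those of the mitosis genes among them. The p-values without it carry that choice and are not a separate test. The cells expressed macrophage genes: in unstimulated wild type the mean log2 signal was 12.57 for Cd68, 12.57 for Lyz2 and 11.34 for Csf1r. Of 9 macrophage markers, 4 were higher (Cd14, Fcgr1, Adgre1 and Csf1r) and 1 was lower (Mertk) in unstimulated knockout than in wild type at a limma adjusted p under 0.05. Of all genes, 3.79% were called higher and 4.46% lower in this comparison. Without that array 6 markers were higher and 1 lower, beside 7.08% and 11.3% of all genes. Of the markers measured for dendritic cells (7), granulocytes (7), lymphocytes (7), fibroblasts and stroma (7) and epithelium (4), 0 passed the same test by limma in any comparison with all arrays, and 0 had an unadjusted p under 0.05 between the unstimulated lines. Without that array 0 passed between the lines. An unadjusted p under 0.05 by limma was then reached by 1 granulocyte and 2 epithelial markers without beads, and by 3 lymphocyte markers and 1 of fibroblasts and stroma with beads. Tlr9 itself gave no check of the labels: its probe set read 7.32, 6.91 and 7.25 in unstimulated wild type and 7.44 and 7.62 in unstimulated knockout (difference 0.37 ± 0.15, limma adjusted p = 0.244), and the place of that probe set relative to the deletion is unknown here.

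Without beads, all 35 mitosis genes had a lower mean in the knockout line than in the wild-type line, and 10 of them fell at an adjusted p under 0.05 (limma over all 19938 genes, Benjamini-Hochberg). The 10 were Nuf2, Plk1, Bub1, Aurkb, Kif20a, Aurka, Cdc20, Ccna2, Espl1 and Cdc25c, and 0 rose. Over all genes tested, 4.46% were called lower and 3.79% higher in this comparison. The differences of the 35 genes ran from -1.15 for Mki67 to -0.24 for Bub1b, with a median of -0.60, beside a median of 0.02 over all genes. In 33 of the 35, both knockout arrays lay below all 3 wild-type arrays, which held for 21.1% of all genes. Cenpe and Nusap1 were the exceptions, each with 1 knockout array above the lowest wild-type array. An unadjusted p under 0.05 by limma was reached by 26 of the 35. The share of all genes at that unadjusted level was not counted, for this or the other comparisons. Such counts therefore have no background beside them.

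With beads, all 35 means were again lower in the knockout line, and 3 genes fell at an adjusted p under 0.05 by limma: Nuf2, Plk1 and Bub1. None rose. Over all genes, 3.4% were called lower and 3.82% higher. The differences ran from -0.93 for Nuf2 to -0.05 for Nusap1, with a median of -0.38 beside -0.01 over all genes. An unadjusted p under 0.05 was reached by 13 genes, and 14 genes had both knockout arrays below all 3 wild-type arrays, which held for 12.3% of all genes.

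The third wild-type bead array set much of these counts. Without it, 30 of 35 genes fell without beads, beside 11.3% of all genes called lower, and 29 of 35 fell with beads, beside 13.7% of all genes. Its omission left the unstimulated means as they were and lowered the spread that all groups share. With beads it also moved the median difference from -0.38 to -0.59. The genes not passing without that array were Bub1b, Bub3, Mad2l1, Cenpe and Nusap1 for the unstimulated lines, and Bub3, Cdk1, Kif11, Kif2c, Cenpa and Nusap1 for the lines with beads. Leaving out 1 of the knockout arrays leaves 1 array in its group, so only medians are given. Without beads they were -0.65 without the first unstimulated knockout array and -0.55 without the second, with all 35 genes lower. With beads they were -0.29 without the first knockout bead array (32 of 35 lower) and -0.49 without the second (35 of 35 lower). The unstimulated count was 4 without the second unstimulated wild-type array, 6 without the third and 8 without the first, beside 2.48% to 2.67% of all genes called lower. The count with beads was 2 (Bub1 no longer passing) without the first or the second wild-type bead array or the first unstimulated wild-type array. Of all genes, 2.05% to 2.61% were then called lower. Centring every array on its own median left 2 genes (Nuf2 and Aurkb) without beads and 0 with beads, beside 1.71% and 1.44% of all genes called lower.

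**Figure D1:**
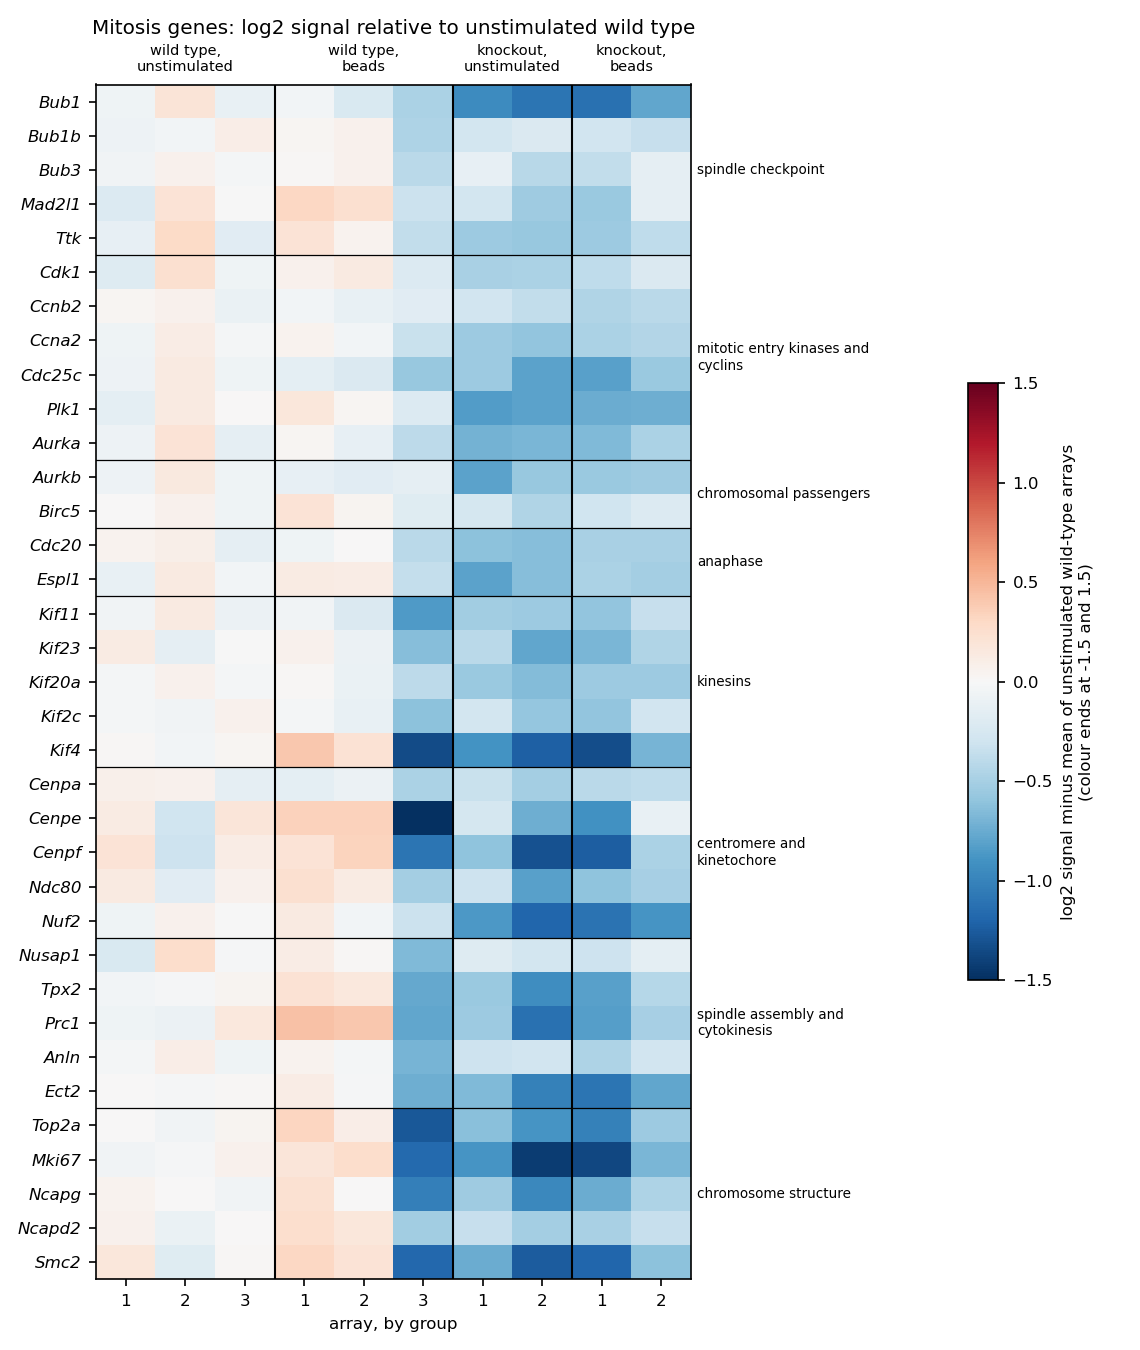
Log2 signal of the 35 mitosis genes (rows, grouped by role) in each of the 10 arrays (columns, by group), as the difference from the mean of the 3 unstimulated wild-type arrays. Blue is lower and red is higher; the 4 knockout arrays are blue in nearly every row, and the third wild-type bead array is blue in every row, palest for Aurkb and darkest for Cenpe, where it differed by -1.83 from the mean of the other 2 bead arrays.

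Array by array, the lines were fully separated for some genes and not for others. In 13 genes all 4 knockout arrays were below all 6 wild-type arrays, which held for 7.88% of all genes. These were Bub1, Ttk, Cdk1, Ccnb2, Ccna2, Plk1, Aurka, Aurkb, Birc5, Cdc20, Espl1, Kif20a and Nuf2. Against the 5 wild-type arrays other than the third bead array, the same separation held in 32 genes (14.9% of all genes), with Mad2l1, Cenpe and Nusap1 as the exceptions. The mean log2 signal over the 35 genes came to 9.08, 9.13 and 9.08 for wild type at rest and 9.22, 9.14 and 8.48 for wild type with beads. Knockout cells had 8.57 and 8.36 at rest and 8.40 and 8.65 with beads. 

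The promoters of these genes are shown before the single values, and no link from them to the differences between the lines was tested. RefSeq (GRCm38.p6) windows from 250 bases before to 50 bases after each transcript start were at hand for 31 of the 36 genes. Of the 10 genes that fell without beads, 6 had a window, and the 120 bases before the start are printed here for those, 5′ to 3′ in the direction of transcription. Capitals mark a CCAAT box (CCAAT, or ATTGG on the other strand), the element that NF-Y binds, and a CHR (TTTGAA or TTCGAA, either strand), the cell cycle genes homology region through which the DREAM and MuvB complexes act.
Nuf2 (chr1:169531465-169531584, minus strand): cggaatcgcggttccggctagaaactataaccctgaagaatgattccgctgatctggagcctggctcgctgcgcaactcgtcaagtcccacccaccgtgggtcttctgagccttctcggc
Bub1 (chr2:127831860-127831979, minus strand): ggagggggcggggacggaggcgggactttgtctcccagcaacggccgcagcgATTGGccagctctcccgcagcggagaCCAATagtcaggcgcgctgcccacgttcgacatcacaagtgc
Aurka (chr2:172370571-172370690, minus strand): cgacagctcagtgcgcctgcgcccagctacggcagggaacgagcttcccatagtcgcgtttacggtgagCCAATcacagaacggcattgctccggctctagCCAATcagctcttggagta
Cdc20 (chr4:118437344-118437463, minus strand): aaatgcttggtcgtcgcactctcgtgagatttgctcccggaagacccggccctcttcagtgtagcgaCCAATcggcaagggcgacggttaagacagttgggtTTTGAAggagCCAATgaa
Plk1 (chr7:122159315-122159434, plus strand): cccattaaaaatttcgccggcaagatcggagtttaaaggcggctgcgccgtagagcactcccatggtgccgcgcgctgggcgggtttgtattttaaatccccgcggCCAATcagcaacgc
Espl1 (chr15:102296173-102296292, plus strand): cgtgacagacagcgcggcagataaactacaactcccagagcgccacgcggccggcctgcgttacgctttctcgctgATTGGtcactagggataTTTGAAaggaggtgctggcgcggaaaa
In these stretches, Espl1 and Cdc20 showed both elements before the start, Bub1, Aurka and Plk1 showed CCAAT boxes, and Nuf2 showed neither. The CHR match of Bub1, Aurka and Plk1 lay after the start, inside the window and outside the printed bases.

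Over the whole windows, a CHR match was found in 25 of 31 genes (80.6%) and a CCAAT box in 24 (77.4%), and both in 22 (71%). Counted by window, 28 of the 34 windows of these genes (82.4%) held a CHR match and 27 (79.4%) a CCAAT box, beside 19.2% and 37.4% of the 32851 windows of all genes. Both stood in 25 windows (73.5%), beside 7.52% of all windows. A CHR match from 50 bases before the start onward was in 24 of 34 windows (70.6%), beside 5.31% of all. The median GC content was 59% in these windows and 52.7% in all. The median position of the first base was -18 for 35 CHR matches and -72.5 for 48 CCAAT boxes. Birc5, Mad2l1, Nuf2 and Nusap1 had neither motif. Nuf2 thus had 1 of the lowest adjusted p-values and no match. A match is a description of letters only.

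**Figure D2:**
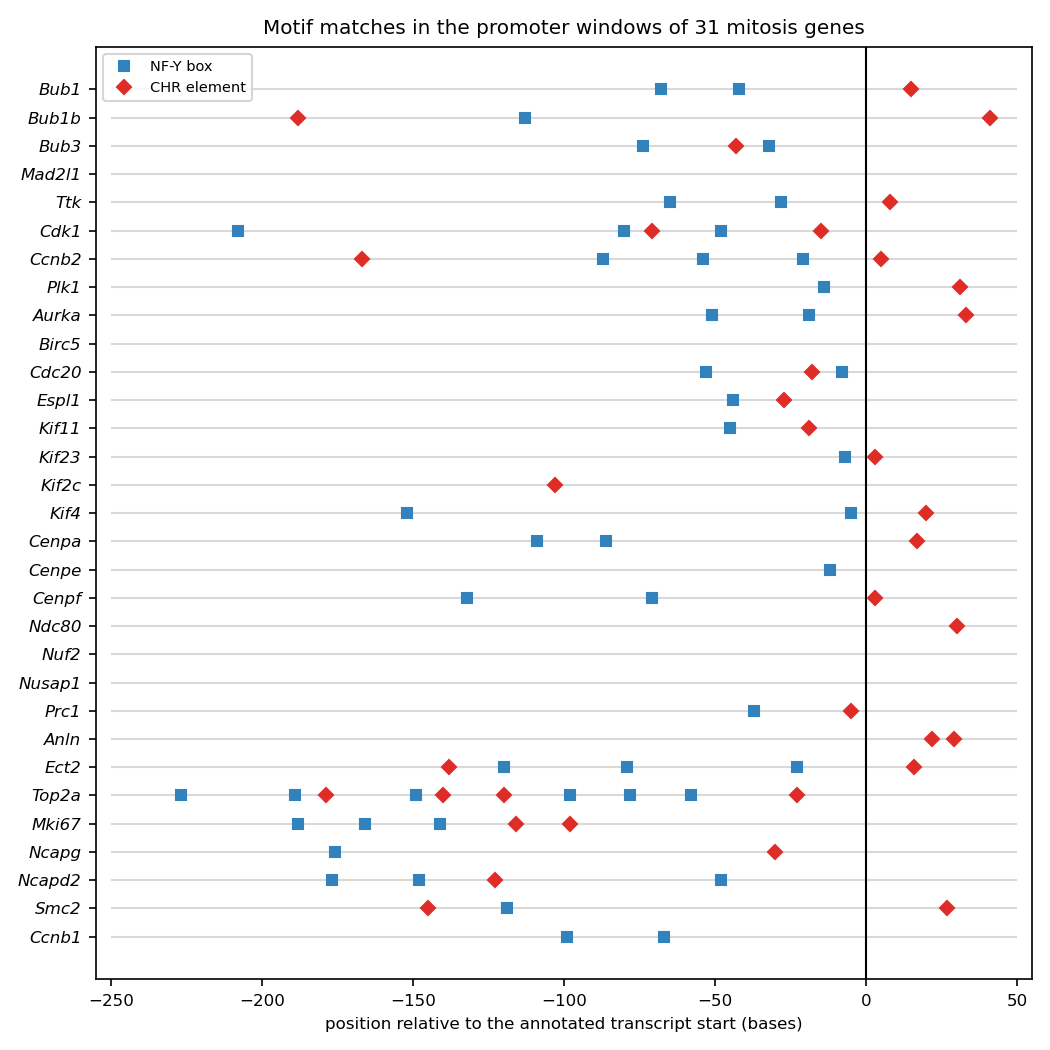
Positions of motif matches in the promoter windows of 31 mitosis genes (rows), in bases from the annotated transcript start. Red diamonds are CHR elements and blue squares are CCAAT boxes (NF-Y boxes); the CHR matches gather around the start (median -18) and the CCAAT boxes before it (median -72.5).

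Of the 5 spindle checkpoint genes, Bub1 fell in both comparisons of the lines and the other genes did not pass with all arrays. Of all genes, 4.46% were called lower without beads and 3.4% with beads, here and for the role groups below. Bub1, a kinase that gathers checkpoint proteins at kinetochores (probe set 10487480), had log2 signals of 9.96, 10.21 and 9.91 in unstimulated wild type, 9.98, 9.79 and 9.55 in wild type with beads, 9.08 and 8.92 in unstimulated knockout, and 8.90 and 9.24 in knockout with beads. All knockout arrays were below all wild-type arrays, and the gap without beads was larger than the spread within either group. Bub1 fell by 1.02 ± 0.16 on the log2 scale without beads, a 2.03-fold difference (± SE of the fit here and below, n = 3 and 2 arrays; limma adjusted p = 0.00383), and by 0.71 ± 0.16 with beads (limma adjusted p = 0.0275). Ttk, the Mps1 kinase that starts checkpoint signalling (probe set 10587508), read 8.57, 8.98 and 8.52 in unstimulated wild type, 8.90, 8.74 and 8.32 in wild type with beads, 8.14 and 8.12 in unstimulated knockout, and 8.15 and 8.31 in knockout with beads. Its groups did not overlap between the lines, but its lowest wild-type array, 8.32, lay close to the highest knockout array, 8.31. The differences of Ttk, -0.56 ± 0.19 without and -0.42 ± 0.19 with beads, did not pass (limma adjusted p = 0.117 and 0.309). Bub1b, Bub3 and Mad2l1 encode the parts of the mitotic checkpoint complex that bind Cdc20. Their differences without beads were -0.24, -0.26 and -0.40, and none passed with all arrays. Without the third wild-type bead array, Bub1 differed by -0.82 ± 0.14 with beads and Ttk by -0.56 ± 0.13 without and -0.59 ± 0.14 with beads (limma adjusted p = 0.00222, 0.0125 and 0.0156). Bub1b and Mad2l1 then fell with beads (limma adjusted p = 0.0171 and 0.0227), and Bub3 passed in neither comparison.

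Among the mitotic entry kinases and cyclins, 4 of the 6 measured genes fell without beads and 1 fell with beads, beside 4.46% and 3.4% of all genes. Plk1, the Polo-like kinase that acts at centrosomes, kinetochores and the midbody (probe set 10557156), had log2 signals of 10.31, 10.59 and 10.46 in unstimulated wild type, 10.63, 10.49 and 10.25 in wild type with beads, 9.62 and 9.66 in unstimulated knockout, and 9.71 and 9.73 in knockout with beads. The lines were fully separated, with the 4 knockout arrays between 9.62 and 9.73 and the lowest wild-type array at 10.25. Plk1 fell by 0.82 ± 0.13 without beads (1.76-fold, limma adjusted p = 0.00373) and by 0.74 ± 0.13 with beads (1.67-fold, limma adjusted p = 0.00663). Aurka, the Aurora kinase of centrosomes and spindle poles (probe set 10490104), read 9.25, 9.53 and 9.20 in unstimulated wild type, 9.36, 9.21 and 8.94 in wild type with beads, 8.62 and 8.64 in unstimulated knockout, and 8.67 and 8.86 in knockout with beads. Here too no knockout array reached a wild-type array, and the third wild-type bead array, 8.94, came nearest. Aurka differed by -0.70 ± 0.15 without beads (limma adjusted p = 0.0176) and by -0.41 ± 0.15 with beads (limma adjusted p = 0.169). Ccna2, which encodes cyclin A2, and Cdc25c, a phosphatase that activates cyclin-dependent kinase 1, also fell without beads, by 0.57 ± 0.12 and 0.66 ± 0.15 (limma adjusted p = 0.019 and 0.0272). Cdk1 and Ccnb2, which encode the kinase and cyclin B2, had differences of -0.48 and -0.33 that did not pass (limma adjusted p = 0.0927 and 0.0653). With the third wild-type bead array left out, these 2 passed without beads (limma adjusted p = 0.0169 and 0.0175), and the differences with beads were -0.84 ± 0.10 for Plk1 and -0.52 ± 0.12 for Aurka (limma adjusted p = 0.000259 and 0.0115).

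Of the chromosomal passengers, Aurkb fell without beads and Birc5 did not pass. Aurkb, the Aurora kinase that corrects faulty attachments at centromeres (probe set 10377405), had log2 signals of 9.76, 9.99 and 9.77 in unstimulated wild type, 9.72, 9.67 and 9.70 in wild type with beads, 9.04 and 9.27 in unstimulated knockout, and 9.28 and 9.31 in knockout with beads. It was the 1 gene in which the third wild-type bead array was not the lowest of its group, and its lines did not overlap. Aurkb fell by 0.69 ± 0.11 without beads (1.61-fold, limma adjusted p = 0.00403), and its difference with beads was -0.40 ± 0.11 (limma adjusted p = 0.0585). Birc5, survivin, which brings Aurkb to centromeres (probe set 10382998), read 8.06, 8.12 and 7.99 in unstimulated wild type, 8.26, 8.10 and 7.88 in wild type with beads, 7.80 and 7.61 in unstimulated knockout, and 7.76 and 7.85 in knockout with beads. The lines were separated by a narrow gap, 7.85 against 7.88, and the differences of -0.35 ± 0.12 and -0.27 ± 0.12 did not pass (limma adjusted p = 0.152 and 0.334). With that bead array left out, Birc5 differed by -0.35 ± 0.09 and -0.37 ± 0.10, and Aurkb by -0.40 ± 0.11 with beads (limma adjusted p = 0.0227, 0.0238 and 0.0251).

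Both anaphase genes fell without beads, beside 4.46% of all genes called lower. Cdc20, which activates the anaphase-promoting complex and is the target of the checkpoint (probe set 10515744), had log2 signals of 8.36, 8.40 and 8.18 in unstimulated wild type, 8.24, 8.32 and 7.90 in wild type with beads, 7.70 and 7.67 in unstimulated knockout, and 7.82 and 7.82 in knockout with beads. Espl1, separase, the protease that cuts cohesin (probe set 10427166), read 8.19, 8.44 and 8.26 in unstimulated wild type, 8.42, 8.41 and 7.94 in wild type with beads, 7.50 and 7.66 in unstimulated knockout, and 7.83 and 7.79 in knockout with beads. In both genes every knockout array was below every wild-type array, and the third wild-type bead array was the lowest of the wild-type arrays. Cdc20 fell by 0.63 ± 0.13 (1.55-fold, limma adjusted p = 0.0187) and Espl1 by 0.72 ± 0.15 (1.65-fold, limma adjusted p = 0.0198). With beads the differences, -0.33 ± 0.13 and -0.45 ± 0.15, did not pass (limma adjusted p = 0.239 and 0.151). They were -0.46 ± 0.09 and -0.60 ± 0.10 without the third wild-type bead array (limma adjusted p = 0.00619 and 0.002). The promoters of both genes, printed above, carry a CHR and a CCAAT box before the start.

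Among the 5 kinesins, the microtubule motors of the spindle, Kif20a fell without beads. Kif20a, which carries passenger proteins to the central spindle (probe set 10454709), had log2 signals of 9.67, 9.76 and 9.67 in unstimulated wild type, 9.72, 9.60 and 9.31 in wild type with beads, 9.14 and 9.05 in unstimulated knockout, and 9.16 and 9.16 in knockout with beads. The 4 knockout arrays lay between 9.05 and 9.16 and the wild-type arrays at 9.31 or above. Kif20a fell by 0.60 ± 0.12 (1.52-fold, limma adjusted p = 0.015), and the difference with beads was -0.38 ± 0.12 (limma adjusted p = 0.116). Kif4, a chromosome-bound kinesin (probe set 10601011), read 7.52, 7.46 and 7.53 in unstimulated wild type, 7.91, 7.72 and 6.16 in wild type with beads, 6.60 and 6.28 in unstimulated knockout, and 6.17 and 6.80 in knockout with beads. Without beads the lines were far apart, but the third wild-type bead array, 6.16, was below all 4 knockout arrays. Kif4 therefore had a large difference with a large error, -1.06 ± 0.44 without beads (limma adjusted p = 0.237) and -0.77 ± 0.44 with beads (limma adjusted p = 0.523). Without that array, the values were -1.06 ± 0.16 and -1.32 ± 0.18 (limma adjusted p = 0.00114 and 0.000531). Kif11, which pushes spindle poles apart, Kif23, which bundles the central spindle, and Kif2c, which takes microtubules apart at centromeres, had differences of -0.54, -0.59 and -0.42 without beads, none of which passed with all arrays. These 3 passed without beads once that array was left out (limma adjusted p = 0.00413, 0.00837 and 0.0258), and Kif20a then differed by -0.50 ± 0.09 with beads (limma adjusted p = 0.00242).

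At the centromere and kinetochore, Nuf2 fell in both comparisons. Nuf2, a subunit of the Ndc80 complex that grips microtubules (probe set 10359890), had log2 signals of 8.78, 8.91 and 8.83 in unstimulated wild type, 8.98, 8.80 and 8.52 in wild type with beads, 7.98 and 7.65 in unstimulated knockout, and 7.73 and 7.95 in knockout with beads. The highest knockout array, 7.98, was well below the lowest wild-type array, 8.52. Nuf2 fell by 1.03 ± 0.15 without beads (2.04-fold, limma adjusted p = 0.00297) and by 0.93 ± 0.15 with beads (1.90-fold, limma adjusted p = 0.00553). Ndc80, its direct partner in that complex, had a difference of -0.56 without beads that did not pass (limma adjusted p = 0.215). Cenpf, a large kinetochore protein of G2 and mitosis (probe set 10360985), read 8.17, 7.65 and 8.07 in unstimulated wild type, 8.16, 8.29 and 6.86 in wild type with beads, 7.36 and 6.65 in unstimulated knockout, and 6.72 and 7.48 in knockout with beads. Its arrays spread widely within groups: the second unstimulated knockout array, the first knockout bead array and the third wild-type bead array were low, at 6.65, 6.72 and 6.86. The differences of Cenpf, -0.96 ± 0.43 and -0.67 ± 0.43, did not pass (limma adjusted p = 0.281 and 0.613). Cenpa, the histone that marks centromeres, and Cenpe, a kinetochore motor, had differences of -0.42 and -0.50 without beads that did not pass. Cenpe had the widest 95% interval of the 35 genes, and the third wild-type bead array, 6.83, was the lowest of all 10. With that array left out, Nuf2 differed by -1.05 ± 0.13 with beads (limma adjusted p = 0.00023), and Cenpf by -0.96 ± 0.25 without and -1.12 ± 0.27 with beads (limma adjusted p = 0.0215 and 0.0145). Ndc80 and Cenpa then passed without beads (limma adjusted p = 0.0179 and 0.00853), and Cenpe did not (limma adjusted p = 0.191).

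Of the genes of spindle assembly and cytokinesis, none of 5 passed with all arrays, in either comparison of the lines. Ect2, which turns on RhoA at the division plane (probe set 10497520), had log2 signals of 9.36, 9.34 and 9.38 in unstimulated wild type, 9.47, 9.34 and 8.63 in wild type with beads, 8.70 and 8.35 in unstimulated knockout, and 8.27 and 8.58 in knockout with beads. The wild-type arrays other than the third bead array sat tightly between 9.34 and 9.47, and that array, 8.63, fell among the knockout arrays. Ect2 had a difference of -0.83 ± 0.23 without beads (limma adjusted p = 0.059) and -0.72 ± 0.23 with beads (limma adjusted p = 0.112). Prc1, which bundles the microtubules of the central spindle (probe set 10554445), read 8.23, 8.21 and 8.46 in unstimulated wild type, 8.74, 8.71 and 7.52 in wild type with beads, 7.75 and 7.18 in unstimulated knockout, and 7.47 and 7.80 in knockout with beads. The same array, 7.52, lay among the knockout values, and the differences of -0.83 ± 0.34 and -0.69 ± 0.34 did not pass (limma adjusted p = 0.226 and 0.402). Without it both genes passed in both comparisons, at -0.83 ± 0.12 and -0.98 ± 0.13 for Ect2 and -0.83 ± 0.16 and -1.09 ± 0.18 for Prc1 (limma adjusted p = 0.000733, 0.000489, 0.00442 and 0.00165). Tpx2, which activates Aurka on the spindle, Anln, a scaffold of the contractile ring, and Nusap1, a microtubule-binding protein, had differences of -0.74, -0.30 and -0.24 without beads. Tpx2 and Anln passed there without that array (limma adjusted p = 0.00235 and 0.038), and Nusap1 did not (limma adjusted p = 0.284).

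The chromosome structure genes had the most negative median of the role groups without beads, -0.76, yet none of 5 passed with all arrays. Mki67, the Ki-67 antigen that coats mitotic chromosomes and is widely stained to count growing cells (probe set 10568714), had log2 signals of 10.78, 10.81 and 10.89 in unstimulated wild type, 11.01, 11.09 and 9.66 in wild type with beads, 9.94 and 9.41 in unstimulated knockout, and 9.46 and 10.14 in knockout with beads. Smc2, the core subunit of condensin (probe set 10504957), read 9.27, 8.92 and 9.12 in unstimulated wild type, 9.41, 9.31 and 7.92 in wild type with beads, 8.36 and 7.85 in unstimulated knockout, and 7.91 and 8.48 in knockout with beads. In both genes the unstimulated groups were far apart, while the third wild-type bead array lay among the knockout arrays. Mki67 had a difference of -1.15 ± 0.40 without beads (2.22-fold, limma adjusted p = 0.135) and -0.79 ± 0.40 with beads (limma adjusted p = 0.411). Smc2 had differences of -1.0 ± 0.41 and -0.68 ± 0.41 (limma adjusted p = 0.223 and 0.555). Without that array all 5 genes fell in both comparisons, beside 11.3% and 13.7% of all genes called lower. Mki67 was then at -1.15 ± 0.19 and -1.25 ± 0.21 (limma adjusted p = 0.0017 and 0.00187) and Smc2 at -1.0 ± 0.19 and -1.17 ± 0.20 (limma adjusted p = 0.00358 and 0.0025). Top2a, which untangles sister chromatids, and the condensin subunits Ncapg and Ncapd2 had differences of -0.76, -0.76 and -0.42 without beads with all arrays. Top2a has further probe sets that were not used, 1 with a mean log2 signal of 3.70 and 2 that also carry the symbol Hibadh. Without beads, the knockout and wild-type arrays overlapped in each unused probe set, and the mean was slightly higher in knockout in each. With beads the mean with all arrays was also higher in knockout in each, where the third wild-type bead array was the lowest. Probe set 10394731, 1 of those with Hibadh, read 7.84 and 7.27 in knockout and 7.26, 7.69 and 7.29 in wild type. With beads it read 7.53 and 8.08 in knockout and 8.18, 7.57 and 6.15 in wild type. The lower Top2a signal in knockout thus rests on probe set 10390707. Over the 20 alternatives, the Top2a difference without beads ran from -0.88 to -0.34.

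**Figure D3:**
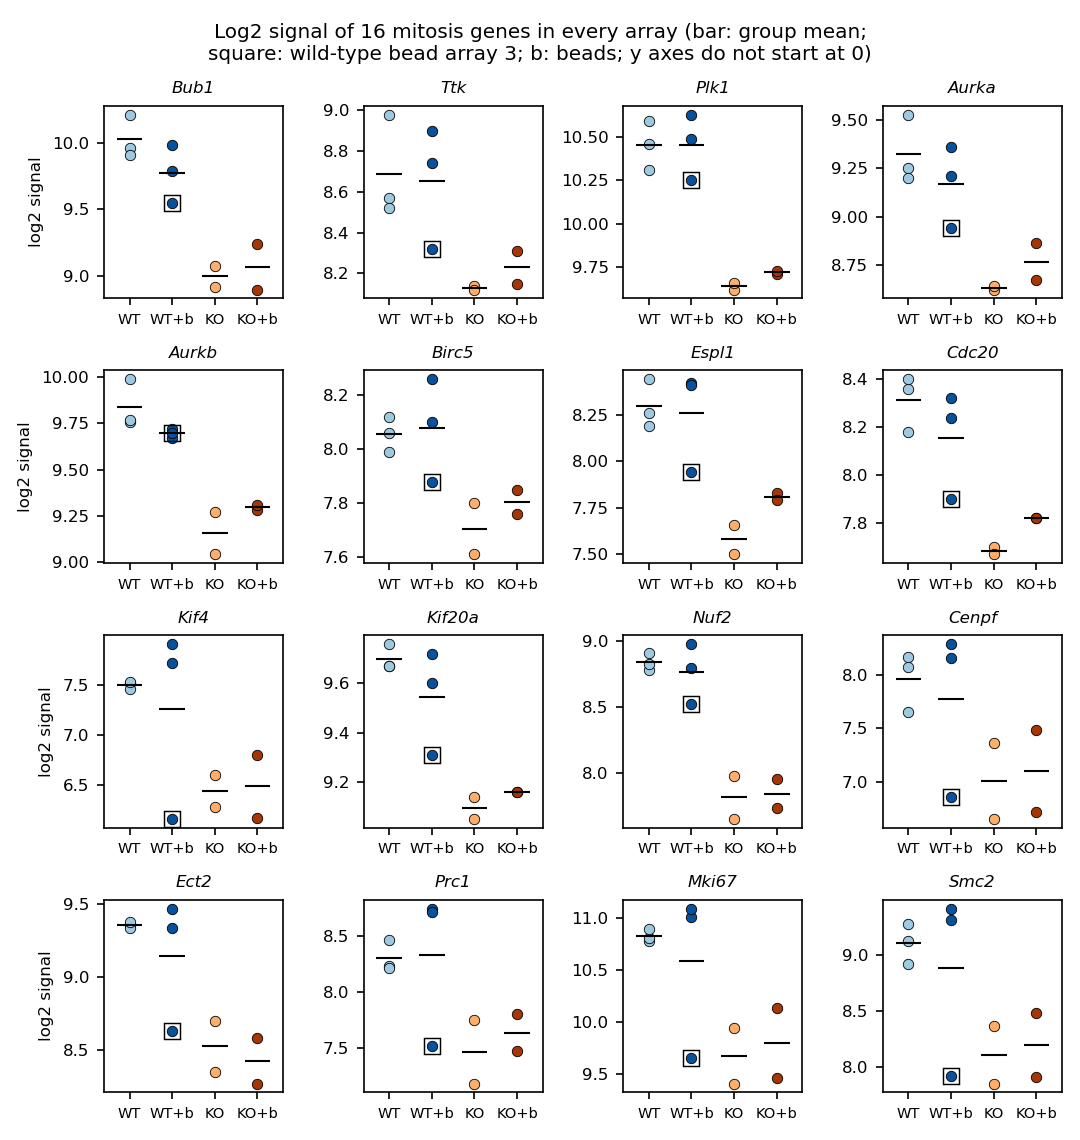
Log2 signal in every array for the 16 mitosis genes whose values are given in full, in panels, with the 4 groups along each x axis; points are arrays, bars are group means and the open square is the third wild-type bead array. In Nuf2, Plk1 and Bub1 the square stays above all knockout points, while in Kif4 it lies below all of them (6.16); the y axes do not start at 0.

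**Figure D4:**
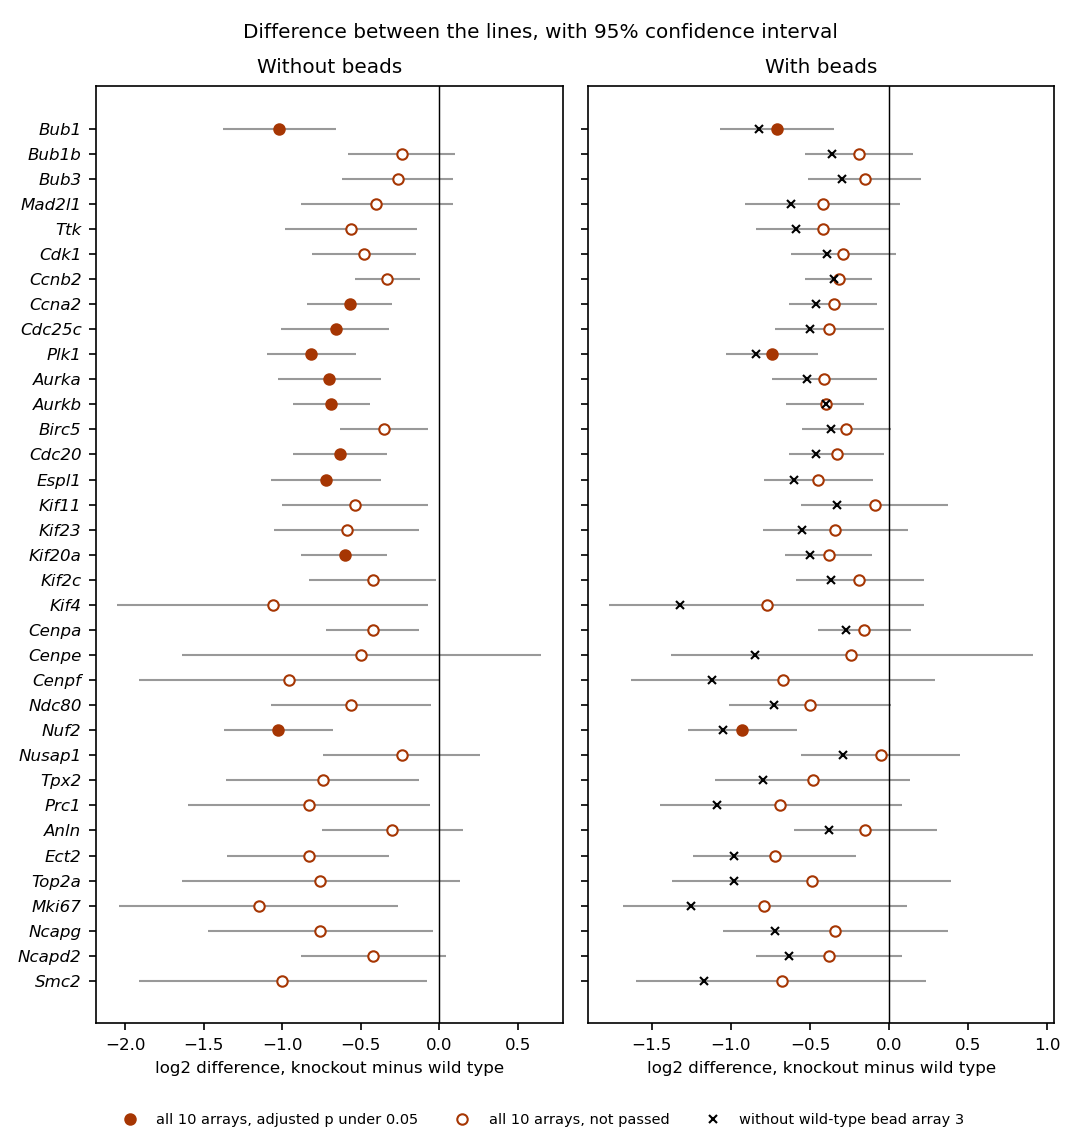
Log2 difference, knockout minus wild type, for each of the 35 mitosis genes without beads (left) and with beads (right), with 95% confidence intervals from the limma fit. Filled points passed an adjusted p under 0.05 (10 without beads, 3 with beads), and crosses give the bead comparison without the third wild-type bead array, where the median moves from -0.38 to -0.59.

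The arrays of each knockout group also differed from one another. In unstimulated knockout, the second array was below the first in 28 of 35 mitosis genes, with a median difference of -0.19, beside -0.02 over the 7147 genes of the same signal range. Of those 7147 genes, 53.6% were lower in the second array. In knockout with beads, the first array was below the second in 32 of 35, with a median of -0.21 beside -0.12. The first array was also lower in 75.8% of the 7147 genes. The largest of these gaps were -0.71 for Cenpf and -0.80 for Cenpe. Over the genes of the same signal range, the median difference between the lines was -0.09 without beads and -0.03 with beads, so the medians of -0.60 and -0.38 in the mitosis genes were further from 0. Of the genes of that range, 60.4% without beads and 54.9% with beads had a lower mean in the knockout line, beside all 35 mitosis genes. With the arrays' signal range as a covariate, chosen after seeing the data, the medians were -0.52 without beads and -0.37 with beads, beside -0.03 and -0.02 over all genes. All 35 genes were lower in both comparisons of that fit. Whether array quality has a part in the differences between the lines was not tested beyond these values and the alternative fits given below.

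Beads had no effect on the mitosis genes that passed a test. In wild type, 0 of 35 passed by limma, as for all genes, where 0% were called lower and 0% higher, and 1 (Cdc25c, -0.31) had an unadjusted p under 0.05. The differences ran from -0.37 to 0.08 with a median of -0.16, and 31 were negative. Without the third bead array the median was 0.06 and 24 were positive, still with 0 passing and 2 at an unadjusted p under 0.05 (Prc1, 0.43, and Ncapd2, 0.21). The sign of the wild-type bead response over these genes thus turned with that array. Cdc25c and Aurkb were lower in every bead array than in every unstimulated wild-type array, where 1.24% of all genes were lower in this way and 2.29% higher. With limma's array weights, a fit that gave the third bead array a weight of 0.0701, 3 genes were called lower and 6 higher, beside 26% and 20% of all genes, which are larger shares than among the 35.

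In knockout cells 0 of 35 passed by limma after beads, beside 0% of all genes in either direction, and 0 had an unadjusted p under 0.05. The median was 0.07 and the range -0.10 to 0.23, with 27 of 35 positive; after quantile normalisation 20 were positive, and with the signal range of the arrays as a covariate 17 were. The sign also turned with single knockout arrays: without the second bead array the median was -0.06 with 13 positive, and without the second unstimulated array it was -0.07 with 11 positive. Ttk, Cdk1, Ccna2, Plk1, Aurka, Aurkb, Cdc20, Espl1 and Kif20a were higher in both bead arrays than in both unstimulated arrays, and Bub1b and Ccnb2 were lower. Among all genes, 13.2% were higher and 11.2% lower in this way. The difference between the lines' bead responses was tested directly. None of 35 passed, 0 had an unadjusted p under 0.05 by limma, and 0% of all genes were called lower or higher. Its median was 0.24 with all arrays and -0.03 without the third wild-type bead array. This contrast uses the same arrays as the 4 others, so the values stand beside them and add no separate evidence.

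**Figure D5:**
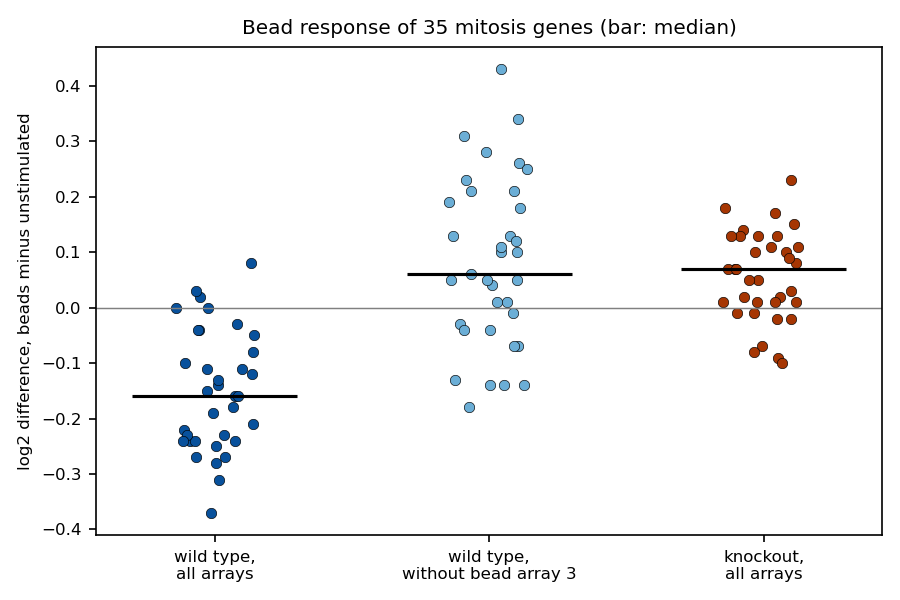
Log2 difference, beads minus unstimulated, of the 35 mitosis genes (points) in wild type with all arrays, in wild type without bead array 3, and in knockout; bars are medians. The medians are -0.16, 0.06 and 0.07, and in these 3 sets no gene passed an adjusted p under 0.05.

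Of 78 other mitosis genes measured, outside the 36, 18 fell without beads and 9 with beads, and 0 rose, beside 4.46% and 3.4% of all genes called lower. The medians were -0.50 and -0.35, and 6 and 8 of the 78 had higher means in the knockout line. Kif14, a motor of cytokinesis, had the largest difference, -1.71 ± 0.30 without beads and -1.37 ± 0.30 with beads (limma adjusted p = 0.00681 and 0.0224). Nek2, a centrosome kinase, fell by 1.23 ± 0.20 and 0.78 ± 0.20 (limma adjusted p = 0.00435 and 0.0454). Pbk, a mitotic kinase, fell by 1.22 ± 0.20 and 0.93 ± 0.20 (limma adjusted p = 0.00462 and 0.0201). Without the third wild-type bead array the counts were 50 and 55 of 78, beside 11.3% and 13.7% of all genes.

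Genes of the anaphase-promoting complex and of mitotic exit had medians closer to 0. Subunits of the complex are mostly present throughout the cell cycle, and the list also holds genes that are not subunits. Of 19 measured, 2 fell in each comparison, beside 4.46% and 3.4% of all genes, with medians of -0.21 and -0.08. Fbxo5, the inhibitor Emi1, fell by 0.85 ± 0.13 and 0.52 ± 0.13 (limma adjusted p = 0.0036 and 0.0435). Anapc7, a subunit, fell by 0.66 ± 0.14 and 0.54 ± 0.14 (limma adjusted p = 0.0166 and 0.0454). Without the third wild-type bead array, 5 of 19 fell in each comparison, beside 11.3% and 13.7% of all genes, and 1 rose without beads.

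Of 26 regulators of mitotic transcription and of cyclin-dependent kinases, none passed without beads and 11 had an unadjusted p under 0.05 by limma, with a median of -0.31. E2f2, an E2F activator, and Mybl2, the B-Myb subunit that joins MuvB in late cell cycle, had the largest differences, -0.87 ± 0.24 and -0.85 ± 0.25 (limma adjusted p = 0.0623 and 0.0722). With beads E2f2 was the 1 gene of 26 that fell, by 1.00 ± 0.24 (limma adjusted p = 0.039), beside 3.4% of all genes, and the median was -0.19. When the third wild-type bead array was left out, 13 and 10 of 26 fell, beside 11.3% and 13.7% of all genes.

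Cyclin-dependent kinase inhibitors and p53 target genes did not share a direction. Of 14 measured, 2 fell and 1 rose in each comparison, with medians of 0.05 and 0.03; of all genes, 4.46% fell and 3.79% rose without beads and 3.4% fell and 3.82% rose with beads. Without the third wild-type bead array, 3 fell and 4 rose without beads, beside 11.3% and 7.08% of all genes, and 4 fell and 2 rose with beads, beside 13.7% and 7.19%. Phlda3, a p53 target that restrains Akt, fell by 0.83 ± 0.09 and 1.01 ± 0.09 (limma adjusted p = 0.000517 and 0.000172). Cdkn2d, the inhibitor p19, fell by 0.49 ± 0.11 and 0.79 ± 0.11 (limma adjusted p = 0.0228 and 0.00197). Btg2, an antiproliferative p53 target, was higher by 0.50 ± 0.09 without beads (limma adjusted p = 0.00824), and Gadd45a, a stress gene, by 0.46 ± 0.10 with beads (limma adjusted p = 0.0224).

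Of 23 genes of S phase measured, listed for comparison, 10 fell without beads and 6 with beads, beside 4.46% and 3.4% of all genes. All 23 means were lower in the knockout line in both comparisons, with medians of -0.63 and -0.41. Mcm2, a subunit of the replicative helicase, fell by 1.30 ± 0.09 and 0.93 ± 0.09 (limma adjusted p = 2.6e-05 and 0.000223). Its log2 signals were 10.43, 10.52 and 10.58 in unstimulated wild type against 9.17 and 9.25 in unstimulated knockout, and the third wild-type bead array, 10.42, lay close to the other bead arrays at 10.53 and 10.51. Ccne1, cyclin E1, fell by 1.29 ± 0.13 and 0.90 ± 0.13, and Mcm7, another helicase subunit, by 1.05 ± 0.13 and 0.87 ± 0.13 (limma adjusted p = 0.000358, 0.00324, 0.000958 and 0.00305). Without the third wild-type bead array the counts were 20 and 16 of 23, beside 11.3% and 13.7% of all genes.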

How the data were processed

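Per the labels' protocols, 100 ng of total RNA was amplified and 5.5 µg of cDNA labelled. The authors deposited log2 signal values per probe set, made with RMA per the submitters' processing notes; its version and filters are not given in the sources used. The arrays were not centred on a common median, and what they were centred on is unknown. Of 28853 probe sets, 21789 carried 1 gene symbol, 1621 several and 5443 none; 21698 were matched to current symbols by Entrez ID, and 999 of the 19938 genes had more than 1 probe set. A model of 4 group means was fitted with limma 3.58.1 in R 4.3.3 (lmFit, eBayes without trend, not robust; 6 residual and 3.23 prior degrees of freedom), two-sided, with Benjamini-Hochberg adjustment over 19938 genes and a threshold of 0.05. Precision is limited by having 2 or 3 arrays per group. The scripts were tested on simulated data. Members and lists were chosen with earlier results of these data known. Named with every array's value are, per role group, the 2 genes with the largest difference between the unstimulated lines and any gene passing in a bead contrast; of other lists, up to 3 genes per direction that passed, or the 2 largest. Adgre1 was also listed under its old name Emr1. Alternatives were trended and robust priors, median and 75th percentile centring, quantile normalisation, a low-signal filter, the compared groups only, array weights, the mean of a gene's probe sets, each array left out and, chosen after seeing the data, the arrays' signal range as covariate. The stress on the fit without the third wild-type bead array was likewise chosen after seeing the data. Promoter windows are RefSeq's, build GRCm38.p6.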

Additional observations from a re-analysis of the deposited data

How the results depend on the processing

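Without beads, 10 of 35 mitosis genes passed with all arrays (4.46% of all genes called lower), 2 with median centring (1.71%), 19 with quantile normalisation (6.65%), 29 with only the compared groups in the fit (9.99%), 32 with array weights (13%), and 29 with arrays' signal range as covariate (11.6%), which was chosen after seeing the data. Leaving out each wild-type array in turn gave 4 to 30 (2.48% to 11.3%). With beads, 3 passed with all arrays (3.4% of all genes), 0 with median centring (1.44%), 0 with only the compared groups (0.908%), 9 with quantile normalisation (5.6%), 33 with array weights (16.6%) and 23 with that covariate (11.4%), and leaving out each wild-type array gave 2 to 29 (2.05% to 13.7%). The tallies over 20 alternatives below include fits without a knockout array, which leave 1 array in a group. For the wild-type bead response, 0 passed with all arrays and 9 with array weights, whose fit did not reach its convergence tolerance and called 26% of all genes lower and 20% higher. The same weighted fit gave the 32 and 33 genes between the lines. It weighted the second wild-type bead array 12.1 and the third unstimulated wild-type array 5.27, so those arrays largely set its wild-type means. In knockout and for the difference of the bead responses, 0 passed under each alternative run. Over 20 alternatives and 35 genes, no difference between the unstimulated lines changed sign, 573 of 700 values kept their side of the threshold, 34 lost it and 93 gained it. With beads, 595 of 700 kept it, 14 lost it, 83 gained it and 8 uncalled values changed sign: without the first knockout bead array Kif11 was 0.02, Cenpe 0.16 and Nusap1 0.03; without the first wild-type bead array they were 0.07, 0.07 and 0.09; without wild-type bead array 2, Cenpe was 0.07 and Nusap1 0.05. Without wild-type bead array 3, the 3 genes were at -0.33, -0.85 and -0.29. Nuf2 passed without beads under all 20 alternatives (adjusted p at most 0.046). Causes of these changes were not tested. No paired analysis was possible because no replicate number is shared between groups in the labels.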
